A study of Drosophila melanogaster with 36 samples.

Results

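Leucine-rich repeat cell surface genes were followed in cells of the wing and haltere imaginal discs of Drosophila melanogaster, the larval epithelial sacs that give rise to the wing and to its balancing counterpart, the haltere. The set was chosen by name, not by level, but with earlier results of these data known. It lists 8 genes: caps, trn and Con, which encode adhesion proteins, and Tl, 18w, Toll-6, Toll-7 and Tollo, which encode receptors of the Toll family. Of these, 7 were matched by symbol to a gene ID among the 17807 IDs counted, and all 7 passed the filter on low counts. No ID of the count files was paired with 18w in the tables used here, and 18w was not analysed.

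Leucine-rich repeats are short curved protein segments that stack into a horseshoe and bind other proteins. In the wing disc, caps and trn are known for the cell affinities that hold dorsal and ventral cells apart. They are transmembrane proteins and close relatives of each other, whereas Connectin, the product of Con, is tied to the membrane by a lipid anchor and binds copies of itself on neighbouring cells. Con was first found as a target of the Hox protein Ubx in the embryo, where muscles and motor neurons make it. Toll receptors carry an intracellular signalling domain. The protein of Tl sets the dorsoventral axis of the embryo and drives antimicrobial defence, whereas those of 18w, Toll-6 and Tollo are best known for orienting cell rearrangements in the embryonic epithelium.

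The RNA-seq part of the series holds 8 of its 36 samples, 2 libraries from each of 4 groups. Haltere nub and wing nub cells came from wandering larvae of genotype yw;nub.gal4;uas-kash.GFP and are distal cells of the appendage primordium. Haltere tsh and wing tsh cells came from yw;tsh.gal4;uas-kash.GFP larvae and are proximal cells. All groups thus carry, under a Gal4 driver, a GFP fused to a KASH domain, which places it in the nuclear envelope. All larvae were raised at 25 °C, and RNA was taken from cells that the labels call sorted, without naming the signal sorted on. The domains differ in driver line as well as in position, so line and domain cannot be told apart.

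Library totals were 96525031 and 92342738 counts in haltere nub, against 15110163 to 17705451 in the other 6 libraries, so depth and haltere nub identity cannot be told apart in the counts as deposited. With those libraries thinned to the mean of the others, the number of members called was the same in each of the 5 tests. Levels are given as CPM, counts brought to a common library size with TMM factors, and the SD is over 2 libraries. CPM carries no transcript length, so levels are compared between groups and not between genes. The markers of disc and domain followed the labels. Ubx lay between 768.9 and 2753.4 CPM in haltere libraries and between 2.05 and 37.1 CPM in wing libraries. The gene nub was at 1036.4 CPM or more in nub and at 38.7 CPM or less in tsh libraries, and tsh at 11.9 to 29.5 CPM in nub and at 689.5 CPM or more in tsh libraries. Wing tsh replicate 1 stood apart, with 5186 genes between 1 and 5 CPM, against 1822 to 2312 in the other libraries. Nothing in the labels says that the 2 replicates of a group are separate larval collections, and the p-values then reflect only the spread between libraries, which may be technical. In bulk RNA, fewer cells of a type and less RNA per cell cannot be told apart.

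**Figure D1:**
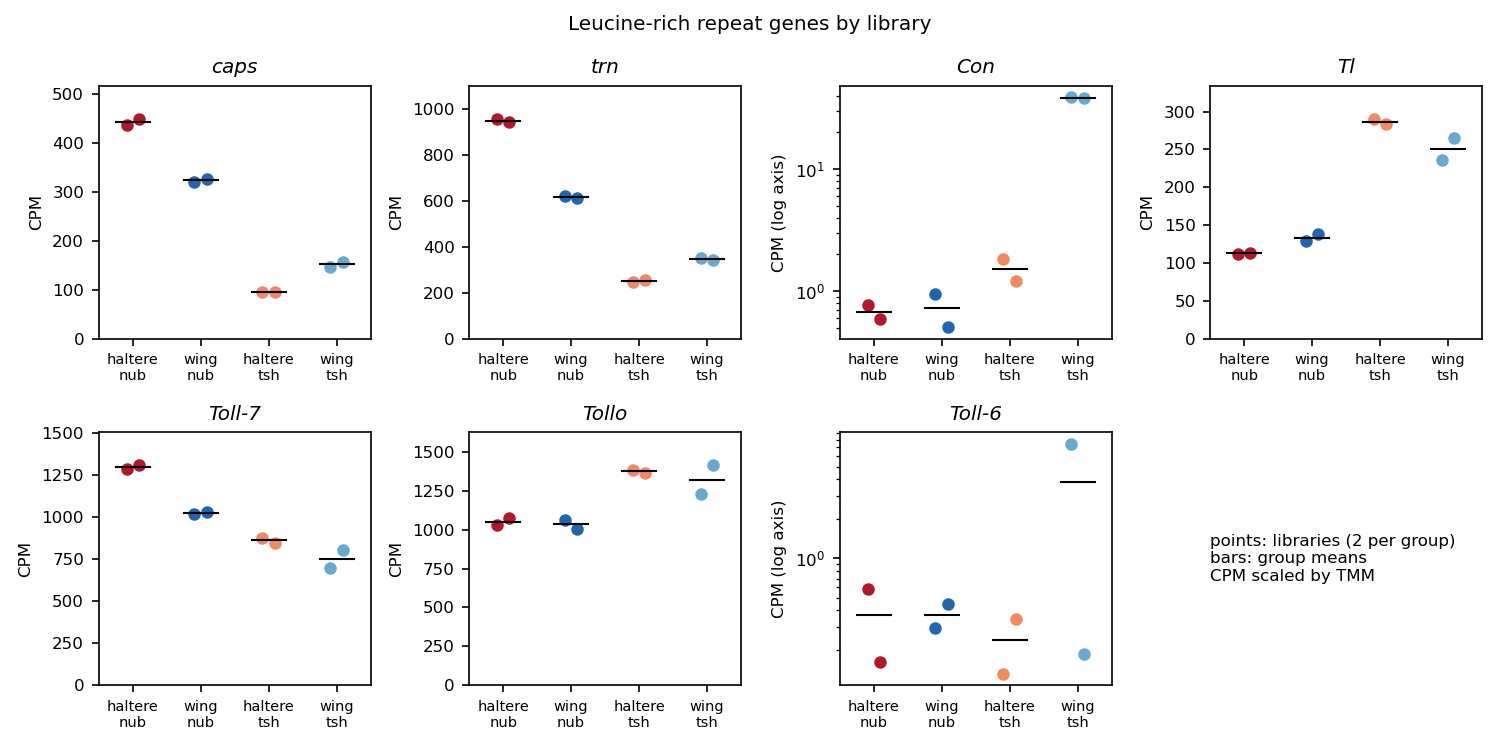
Level of each of the 7 genes in every library (y axis, CPM scaled by TMM, a log axis for Con and Toll-6) in haltere nub, wing nub, haltere tsh and wing tsh cells, with points for libraries and bars for group means. The levels of caps and trn are highest in haltere nub and lowest in haltere tsh cells, Con stands out in wing tsh cells alone, and Toll-6 is raised in 1 wing tsh library alone.

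The nearest relatives, caps and trn, had the same order of groups. In haltere nub cells caps stood at 435.8 and 448.4 CPM. It stood at 320.5 and 326.4 CPM in wing nub, at 95.3 and 95 CPM in haltere tsh, and at 145.6 and 156.9 CPM in wing tsh cells. No group overlapped another, and the distal cells of the haltere were at the top while its proximal cells were at the bottom.

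For trn the levels were 955.2 and 940.4 CPM in haltere nub cells, 621.1 and 612.3 CPM in wing nub, 246.0 and 254.6 CPM in haltere tsh, and 349.9 and 342.8 CPM in wing tsh cells. Here too no group overlapped another. Both genes lie on chromosome arm 3L (Release 6 assembly, to which the dm6 build belongs), trn at 13114271 to 13118077 and caps at 13228692 to 13279642.

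The haltere was above the wing in distal cells and below it in proximal cells, for both genes. In nub cells caps was higher in the haltere by 0.45 ± 0.08 on the log2 scale (SE, adjusted p = 0.00194) and trn by 0.62 ± 0.08 (adjusted p = 0.000232). In tsh cells caps was lower in the haltere, at -0.67 ± 0.08 (adjusted p = 0.000522), and so was trn, at -0.47 ± 0.08 (adjusted p = 0.00576). The call of trn in tsh cells was lost without haltere tsh replicate 1 (-0.44, adjusted p = 0.114) or replicate 2 (-0.49, adjusted p = 0.0617).

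These disc differences differed between domains by the test of the interaction itself. The haltere over wing ratio in nub cells exceeded that in tsh cells by 1.12 ± 0.11 for caps (adjusted p = 9.4e-05) and by 1.09 ± 0.11 for trn (adjusted p = 9.71e-05). Of all 11198 genes tested, 82 were called in both domains with opposite signs, or 0.732%. Of the 7 members, 2 were among them, caps and trn. With a trend over gene span removed, the value of caps in nub cells was 0.25 (adjusted p = 0.0482) and that of its interaction 0.78, while trn stayed at 0.63 in nub cells. The caps span is 50951 bases and that of trn 3807.

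Distal cells had more of both genes in each disc. In the haltere disc caps was 4.65-fold higher in nub than in tsh cells (log2 2.22 ± 0.08, adjusted p = 4.54e-09) and trn 3.79-fold higher (1.92 ± 0.08, adjusted p = 1.25e-08). In the wing disc the folds were 2.14 for caps (1.10 ± 0.08, adjusted p = 1.8e-06) and 1.78 for trn (0.83 ± 0.08, adjusted p = 1.71e-05). The larger domain step in the haltere is the interaction given above, seen from the other side.

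Within a library, the ratio of caps to trn counts does not depend on scaling. It was 0.456 and 0.477 in haltere nub and 0.516 and 0.533 in wing nub cells, against 0.388 and 0.373 in haltere tsh and 0.416 and 0.458 in wing tsh cells. The nub libraries of each disc lay above its tsh libraries, and the haltere libraries of the nub domain below those of the wing. The pair thus moved alike but not in a fixed ratio.

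The 2 genes are separated by 110.6 kb that hold 10 annotated genes. None of the 10 passed the filter, and their highest level in any library was 2.46 CPM, for snky in wing tsh replicate 1. A gene nested within caps, CG32119 (3L, 13246864 to 13248702), was also higher in nub cells, by 1.51 ± 0.17 in the haltere disc (adjusted p = 5.94e-05) and by 1.12 ± 0.17 in the wing disc (adjusted p = 0.000743). It had 74 to 1455 counts a library, against 1448 to 42736 for caps. Whether counting used strand is not given in the sources used here, so reads of caps and of this gene may not be separate.

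By the root-mean-square difference of centred log2(CPM + 1) values over the 8 libraries, the gene nearest to trn among 7395 candidates was Wnt6, which encodes a Wnt ligand, at 0.098 (Pearson's r = 0.992). Wnt6 averaged 178.4 ± 3.71 CPM in haltere nub, 118.4 ± 10.6 CPM in wing nub, 52.0 ± 0.530 CPM in haltere tsh and 61.4 ± 3.61 CPM in wing tsh cells. The cytochrome P450 gene Cyp4p1 came next, at 0.141 (r = 0.982). For caps the nearest were the ID FBgn0029082, which no table used here names, at 0.167 (r = 0.984), and CG6847 at 0.168 (r = 0.985), with trn ranked directly after them at 0.170 (r = 0.991). These are descriptions over 8 libraries that share the same 4 groups.

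Con was highest in proximal wing cells. It had 628 and 607 counts in the wing tsh libraries, or 38.6 and 37.9 CPM. In the other groups it stood at 0.775 and 0.586 CPM in haltere nub cells, 0.939 and 0.508 CPM in wing nub, and 1.84 and 1.2 CPM in haltere tsh cells, with 9 to 76 counts a library. Both wing tsh libraries had nearly the same value, although low genes were raised in replicate 1 alone.

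Haltere tsh cells had 25.4-fold less Con than wing tsh cells (log2 -4.67 ± 0.25, adjusted p = 1.39e-06), and wing nub cells 53.1-fold less than wing tsh cells (-5.73 ± 0.28, adjusted p = 4.88e-08). Without wing tsh replicate 1 or any other library, both stayed called. In the haltere disc nub cells were lower than tsh cells, at -1.14 ± 0.29 (adjusted p = 0.0138), a call lost without haltere tsh replicate 1 (-0.81, adjusted p = 0.2) or haltere nub replicate 2 (-0.96, adjusted p = 0.0845), and in a fit of the haltere libraries alone (adjusted p = 0.115). Between the nub cells of the discs, whose ranges overlap, the difference was -0.08 with a 95% interval of -0.82 to 0.66. The haltere over wing ratio in nub cells exceeded that in tsh cells by 4.59 ± 0.40 (adjusted p = 2.92e-05).

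Con spans 142276 bases of 3L (4936758 to 5079033), and 5 annotated genes lie within it, none of which passed the filter. The genes nearest to it in pattern were the lipid carrier gene Apoltp, at a root-mean-square difference of 0.503 (r = 0.979), and CG42749 at 0.557 (r = 0.981). Apoltp averaged 25.0 ± 11.5 CPM and CG42749 25.7 ± 0.0853 CPM in wing tsh cells, and both averaged between 1.12 and 2.14 CPM in each of the other groups.

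Muscle precursors lie under the proximal disc epithelium, and their markers moved in the same comparison. Of 8 myoblast genes 6 were lower in haltere tsh than in wing tsh cells and none was higher (median -1.37, against -0.03 over all genes, of which 2.22% were lower), and 4 were lower without wing tsh replicate 1. Mef2 and Him were not called there (-0.02, adjusted p = 0.934, and -2.91, adjusted p = 0.144). The summed level of the 8 genes was 243.9 to 256.7 CPM in haltere tsh and 374.6 to 386.6 CPM in wing tsh cells. It was 342.1 to 344.8 CPM in haltere nub and 281.9 to 297.2 CPM in wing nub cells, so the sum was higher in both nub groups than in haltere tsh cells. Most of each sum came from Mef2, sns and kirre. In haltere nub cells these averaged 113.2, 113.5 and 111.2 CPM, against 97.2, 109.2 and 21.7 CPM in haltere tsh cells. The others, twi, zfh1, htl, stumps and Him, each averaged less in both nub groups than in haltere tsh cells. The muscle precursor gene zfh1 stood at 6.52 and 5.25 CPM in haltere tsh and at 27.6 and 31.1 CPM in wing tsh cells, and htl, which encodes an FGF receptor of the mesoderm, at 3.95 and 4.40 CPM in haltere tsh and at 16.3 and 12.7 CPM in wing tsh cells. In wing nub cells 6 of the 8 were lower than in wing tsh cells and 1 was higher, kirre, which encodes an immunoglobulin adhesion protein. Of all genes, 7.88% were lower and 5.96% higher in that comparison. In haltere nub cells 4 of the 8 were lower than in haltere tsh cells and 1 was higher, again kirre, where 15% of all genes were lower and 9.96% higher. Unlike the others, kirre was crossed between discs as caps was, at 0.73 ± 0.10 in nub cells (adjusted p = 0.000567) and -1.2 ± 0.12 in tsh cells (adjusted p = 9.81e-05). None of the 8 was at 0 in any library. Of the 11 neuron or glia genes 1 was lower in haltere tsh cells and none higher, with summed levels of 606.4 to 660.4 CPM there and 590.6 to 627.1 CPM in wing tsh cells. Of 7 tracheal genes 1 was lower in haltere tsh cells, and of 6 hemocyte and 2 fat body genes that passed the filter edgeR called none (1 and 2 at an unadjusted p under 0.05, and 1 and 0 with DESeq2). The summed fat body level was 3.16 to 4.00 CPM in haltere tsh cells and 24.6 and 3.12 CPM in wing tsh replicates 1 and 2. The part of these cells in the level of Con was not tested.

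**Figure D2:**
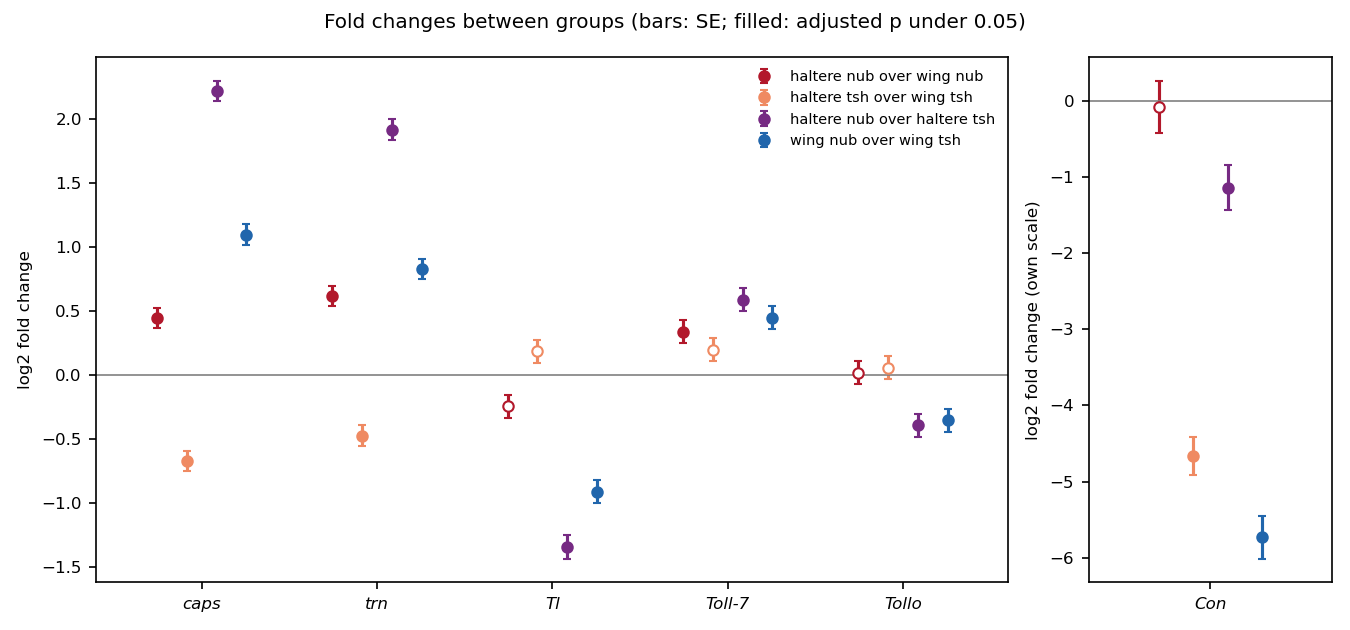
Log2 fold changes (y axis) of 6 members in the 4 comparisons of 2 groups, with bars for the SE and filled points for an adjusted p under 0.05, Con on a scale of its own. The signs of caps and trn for haltere over wing are opposite in nub and tsh cells, and the signs for nub over tsh are the same in both discs for each of the 6 genes.

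The founding Toll receptor gene, Tl (3R, 26799041 to 26842403), was higher in proximal cells. It stood at 112.3 and 113.7 CPM in haltere nub cells and 128.6 and 138.3 CPM in wing nub cells, against 290.3 and 283.0 CPM in haltere tsh and 235.4 and 265.4 CPM in wing tsh cells. All nub libraries lay below all tsh libraries. Haltere nub cells had 2.54-fold less than haltere tsh cells (log2 -1.34 ± 0.09, adjusted p = 5.13e-07), and wing nub cells 1.88-fold less than wing tsh cells (-0.91 ± 0.09, adjusted p = 1.99e-05).

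Between discs, no difference of Tl passed the test with all libraries. The haltere over wing value was -0.24 in nub cells, with a 95% interval of -0.43 to -0.05 and an adjusted p of 0.0663, and 0.19 in tsh cells, with an interval of 0.01 to 0.38 and an adjusted p of 0.261. Neither was called, but the difference between these values was, at -0.43 ± 0.12 (adjusted p = 0.0353). That call was lost without any single library of haltere tsh, haltere nub or wing nub (-0.49 to -0.37, adjusted p = 0.0646 to 0.13). Without wing tsh replicate 1 or replicate 2 the nub difference was called at the same size (adjusted p = 0.017 and adjusted p = 0.0181). With the trend over gene span removed it was -0.42, which also passed the test (adjusted p = 0.00584), and the interaction was then -0.75 (adjusted p = 0.00325). The genes nearest to Tl in pattern were the ID FBgn0265434, which no table used here names, at 0.076 (r = 0.992), and Fim, which encodes the actin bundling protein fimbrin, at 0.081 (r = 0.990).

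Toll-7, on chromosome arm 2R, was the Toll gene that was higher distally. Its protein has been described as a receptor in antiviral defence and for neurotrophins. It stood at 1282.6 and 1306.6 CPM in haltere nub cells and 1016.4 and 1030.8 CPM in wing nub cells, against 874.9 and 847.6 CPM in haltere tsh and 696.3 and 805.8 CPM in wing tsh cells. No group overlapped another, though the steps were small beside those of caps.

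Nub cells had 1.5-fold more Toll-7 than tsh cells in the haltere disc (log2 0.59 ± 0.09, adjusted p = 0.000698) and 1.36-fold more in the wing disc (0.45 ± 0.09, adjusted p = 0.00644). In the wing disc the call was lost when only the 4 libraries compared were fitted (adjusted p = 0.0787). Between nub cells the haltere was higher by 0.34 ± 0.09 (adjusted p = 0.0201), a call lost without any one of the 4 libraries of these groups (0.33 to 0.35, adjusted p = 0.0661 to 0.134) or with no filter (adjusted p = 0.0734). In tsh cells the value was 0.20 with an interval of 0.00 to 0.40 (adjusted p = 0.281), and the interaction was 0.14 (interval -0.14 to 0.42, adjusted p = 0.47). The genes nearest to Toll-7 in pattern were CG4576 at 0.061 (r = 0.979) and Drak, a kinase gene, at 0.075 (r = 0.989).

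Tollo (3L, 15235619 to 15242832), also known as Toll-8, was somewhat lower distally. It stood at 1031.5 and 1073.5 CPM in haltere nub cells and 1065.9 and 1007.9 CPM in wing nub cells, against 1383.6 and 1369.4 CPM in haltere tsh and 1228.1 and 1415.4 CPM in wing tsh cells. The discs overlapped within each domain, and the domains did not overlap within either disc.

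Nub cells had 1.31-fold less Tollo than tsh cells in the haltere disc (log2 -0.39 ± 0.09, adjusted p = 0.0102) and 1.27-fold less in the wing disc (-0.35 ± 0.09, adjusted p = 0.0269). The haltere call was lost without any one of the 4 haltere libraries (-0.42 to -0.36, adjusted p = 0.0603 to 0.103). The wing call was lost without any single haltere or wing nub library (-0.39 to -0.32, adjusted p = 0.0584 to 0.127), with no filter (adjusted p = 0.141) or in a fit of the wing libraries alone (adjusted p = 0.168). Without wing tsh replicate 1 it stayed. For the haltere against the wing the value was 0.02 in nub cells (interval -0.18 to 0.22) and 0.06 in tsh cells (interval -0.14 to 0.26). The genes nearest to Tollo in pattern were Lmpt and Sec5, at 0.055 each (r = 0.964 and r = 0.965).

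Set against each other within a library, Tollo and Toll-7 moved in opposite ways between domains. The ratio of Tollo to Toll-7 counts was 0.804 and 0.822 in haltere nub and 1.05 and 0.978 in wing nub cells, against 1.58 and 1.62 in haltere tsh and 1.76 and 1.76 in wing tsh cells. The ratio of Tl to Toll-7 counts was 0.0876 and 0.0871 in haltere nub and 0.127 and 0.134 in wing nub cells, against 0.332 and 0.334 in haltere tsh and 0.338 and 0.329 in wing tsh cells. Nub and tsh libraries stood far apart in both ratios. Of the summed level of the 4 measured Toll receptor members no test was made. It was 2427.0 to 2494.0 CPM in haltere nub, 2177.5 to 2211.1 CPM in wing nub, 2500.4 to 2549.0 CPM in haltere tsh and 2167.3 to 2486.9 CPM in wing tsh cells.

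Toll-6 (3L, 15336692 to 15344315) lies 93.9 kb from Tollo but was near the limit of detection. It had 57 and 15 counts in haltere nub, 5 and 8 in wing nub, 2 and 6 in haltere tsh, and 121 and 3 in wing tsh cells. The 121 counts, or 7.43 CPM, are those of wing tsh replicate 1, and every other library lay between 0.132 and 0.581 CPM. Toll-6 was not called by edgeR in any of the 5 tests. For the haltere against the wing in tsh cells its value was -3.99 (adjusted p = 0.196) with both libraries, 0.37 without wing tsh replicate 1, and -4.94 without replicate 2 (adjusted p = 0.00164). For wing nub against wing tsh cells it was -3.35 (adjusted p = 0.145), 0.99 and -4.31 (adjusted p = 0.00144) likewise. DESeq2 called both with all libraries (adjusted p = 0.0291 and adjusted p = 0.0378).

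The Toll receptor genes outside the set were also near the limit of detection. MstProx, Toll-4, Tehao and Toll-9 together reached 0.646 to 1.73 CPM in 7 libraries and 15.0 CPM in wing tsh replicate 1, and Toll-9 alone passed the filter. The raised Toll-6 value thus stood in the library with the raised low genes, and wing tsh replicate 2 held 3 counts.

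In counts, 6 of the 7 members were called between nub and tsh cells in each disc, where 24.9% of all genes were called in the haltere disc and 13.8% in the wing disc. Of the 6, caps, trn and Toll-7 were higher and Con, Tl and Tollo lower in nub cells, in both discs. Of all genes, 9.96% were higher and 15.0% lower in nub cells of the haltere disc, and 5.96% were higher and 7.88% lower in those of the wing disc. Over all genes, 6.83% were called in both discs with the same sign. Because the members were chosen with earlier results of these data known, the counts here and below are no test of the set.

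Between discs, 3 of 7 were called in nub cells (caps, trn and Toll-7, all higher in the haltere) against 23.3% of all genes, of which 9.72% were higher and 13.6% lower. In tsh cells, 3 of 7 were called (caps, trn and Con, all lower in the haltere) against 3.26% of all genes, of which 1.04% were higher and 2.22% lower. The fit without wing tsh replicate 2 leaves replicate 1 alone in its group. In it the tsh values were 0.28 for Tl, 0.31 for Toll-7 and -4.94 for Toll-6. With all libraries they were 0.19, 0.20 and -3.99. The interaction was called for 4 of 7, caps, trn and Con with a positive value and Tl with a negative one, against 15.4% of all genes, of which 7.32% were positive and 8.1% negative.

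The ligands of Toll receptors are the secreted cystine knot proteins of the Spätzle family. Their 6 genes were all measured, and they did not follow 1 pattern. The gene spz, whose product activates the protein of Tl, stood at 7.96 and 8.16 CPM in haltere nub cells and 21.4 and 23.7 CPM in wing nub cells, against 4.87 and 4.22 CPM in haltere tsh and 9.45 and 5.31 CPM in wing tsh cells. It was higher in nub cells than in tsh cells, both in the haltere disc (0.83 ± 0.23, adjusted p = 0.0224) and in the wing disc (1.61 ± 0.22, adjusted p = 0.00043), the direction opposite to that of Tl. In nub cells it was lower in the haltere by a log2 value of -1.48 ± 0.21 (adjusted p = 0.000541).

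NT1 encodes a neurotrophin described as a ligand of the Toll-7 protein. It stood at 8.26 and 7.76 CPM in haltere nub cells and 4.58 and 3.38 CPM in wing nub cells, against 12.0 and 11.9 CPM in haltere tsh and 37.2 and 39.6 CPM in wing tsh cells. Like Con, it was highest in wing tsh cells, with both libraries alike. Haltere tsh cells had less than wing tsh cells (-1.68 ± 0.14, adjusted p = 3.66e-05), whereas haltere nub cells had more than wing nub cells (1.01 ± 0.16, adjusted p = 0.00104). The interaction was 2.69 ± 0.21 (adjusted p = 1.28e-05). NT1 was lower in nub than in tsh cells in both discs, at -0.58 ± 0.14 in the haltere (adjusted p = 0.0106) and -3.27 ± 0.16 in the wing (adjusted p = 5.16e-08), where Toll-7 was higher.

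Among the other ligand genes, spz6 was lower in nub than in tsh cells in the haltere disc (-0.88, adjusted p = 0.00111) and in the wing disc (-0.67, adjusted p = 0.0122). The gene spz5, whose product is described as a ligand of the Toll-6 protein, stood at 1.49 and 1.17 CPM in haltere nub cells. It was at 3.38 CPM in wing tsh replicate 1 and at 0.132 to 0.624 CPM in the other 5 libraries. Its interaction was 5.30 ± 1.34 (adjusted p = 0.0241), and 3.61 ± 1.11 without wing tsh replicate 1 (adjusted p = 0.0377). Without that library spz5 was also called higher in haltere nub cells than in wing nub cells (1.83, adjusted p = 0.0317) and than in haltere tsh cells (2.87, adjusted p = 0.00491), and the interaction of spz was called (-1.26, adjusted p = 0.0069).

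**Figure D3:**
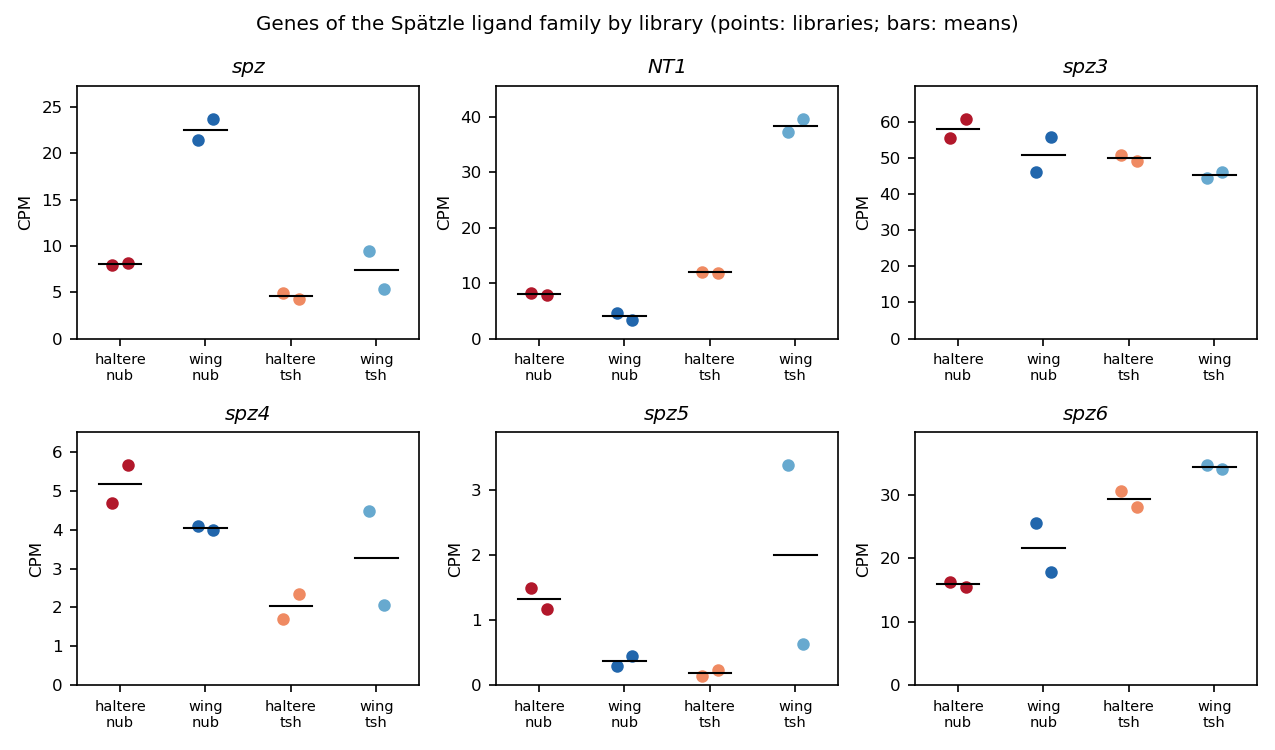
Level of the 6 genes of the Spätzle family in every library (y axis, CPM scaled by TMM), with points for libraries and bars for group means. The level of spz is highest in wing nub cells and that of NT1 in wing tsh cells, at 37.2 and 39.6 CPM.

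Of the 10 genes that process these ligands, 9 passed the filter. The list was chosen for the Toll pathway and holds genes of the embryo and of immunity. In the haltere disc 4 were higher and 1 lower in nub cells (median 0.81), where 9.96% of all genes were higher and 15.0% lower. The wing disc had 3 higher and 1 lower (median 0.66), where 5.96% of all genes were higher and 7.88% lower. All genes had medians of -0.01. With wing tsh replicate 1 left out, the median of the list in the wing disc was 0.79. The protease gene grass, of the immune branch, was lower in nub cells of the haltere (-1.98 ± 0.12, adjusted p = 2.91e-07) and of the wing (-2.16 ± 0.13, adjusted p = 4.66e-07). The gene ea encodes the protease that cleaves Spätzle in the embryo. It was higher in nub cells of the haltere (0.81 ± 0.12, adjusted p = 0.000622) and of the wing (1.27 ± 0.13, adjusted p = 4.42e-05). Between nub cells, the protease gene modSP was higher (0.83 ± 0.09, adjusted p = 5.64e-05) and the sulfotransferase gene pip lower in the haltere (-1.02 ± 0.08, adjusted p = 7.29e-06).

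Of 10 genes of the cytoplasmic part of the pathway, all of which passed the filter, edgeR called none between discs in tsh cells (3 at an unadjusted p under 0.05, and 1 with DESeq2), where 3.26% of all genes were called. Between discs in nub cells it called 1, where 23.3% of all genes were called. In nub cells Pli, which encodes a Pellino family protein that binds the kinase of the pathway, was higher in the haltere (0.41 ± 0.10, adjusted p = 0.0103). Without wing tsh replicate 1 it was also called lower in haltere tsh than in wing tsh cells, at -0.47 ± 0.09 (adjusted p = 0.00737). In the wing disc Pli alone was called between domains (-0.34 ± 0.10, adjusted p = 0.0408), or 1 of 10 against 13.8% of all genes. In the haltere disc 3 were higher and 1 lower in nub cells, or 4 of 10 against 24.9% of all genes. Pli was at 0.42 ± 0.10 there and the adaptor gene tub at -0.39 ± 0.10, and the median of the list was 0.05. The interaction was called for 2 of the 10, 1 positive and 1 negative, against 15.4% of all genes. The antifungal peptide gene Drs, a target of the pathway in immunity, stood at 9.62 and 10.6 CPM in haltere nub cells and at 3.23 and 5.02 CPM in wing nub cells (1.29 ± 0.28, adjusted p = 0.0071). Drs was also called higher in haltere nub than in haltere tsh cells (1.00), and its interaction was called (1.91). For wing nub over wing tsh cells it was not called (-0.90), and stood at -1.11 when wing tsh replicate 1 was left out. Mtk, the other target listed, had 16 counts over all libraries.

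Of 10 genes listed as partners of Toll receptors at the cell surface and cortex, 9 were matched. Between nub cells 5 were higher in the haltere and none lower (median 0.26), where 9.72% of all genes were higher and 13.6% lower. With wing tsh replicate 1 left out, the median was again 0.26. The gene sqh, which encodes the regulatory light chain of myosin, went the other way, at -0.35 in that fit. Cirl encodes an adhesion G protein-coupled receptor that binds the Tollo protein. Its level averaged 3800.4 ± 19.7 CPM in haltere nub cells, against 2832.2 ± 238.4 CPM in wing nub cells (0.42 ± 0.09, adjusted p = 0.00668). The teneurin gene Ten-a was higher in haltere nub than in wing nub cells by 0.51 (adjusted p = 0.00613) and lower in haltere tsh than in wing tsh cells, at -0.46 (adjusted p = 0.0398). Its relative Ten-m was lower in nub than in tsh cells in the haltere disc (-0.50, adjusted p = 0.00589) and in the wing disc (-0.84, adjusted p = 0.000236), as Tollo was. In the wing disc 4 were lower in nub cells and none higher, where 7.88% of all genes were lower. The median was -0.28 there, and -0.35 without wing tsh replicate 1.

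Among the other genes of the leucine-rich repeat family, 21 of 24 passed the filter. In the haltere disc 10 were higher and 2 lower in nub cells (median 0.52), or 12 of 21 against 24.9% of all genes. The wing disc had 5 higher and 4 lower (median -0.10), or 9 of 21 against 13.8%. Without wing tsh replicate 1 the median there was 0.12. Between discs, 6 were higher and 5 lower in the haltere in nub cells, or 11 of 21 against 23.3%. In tsh cells 1 was higher and 5 lower, or 6 of 21 against 3.26%. The median was -0.38 there, and -0.22 without wing tsh replicate 1.

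The gene of this list with the smallest p between discs was ltl, which encodes a secreted protein. It stood at 11.5 and 11.4 CPM in haltere nub cells, 418.2 and 505.9 CPM in wing nub cells, 1.12 and 0.742 CPM in haltere tsh cells and 13.6 and 15.2 CPM in wing tsh cells. It was lower in the haltere both in nub cells (-5.34 ± 0.12, adjusted p = 5.54e-10) and in tsh cells (-3.97 ± 0.21, adjusted p = 1.39e-06). Its interaction was -1.37 ± 0.32 (adjusted p = 0.0167), of opposite sign to that of caps and trn.

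The crossed pattern of caps and trn was shared by 3 of these 21 genes, rdo, kek1 and haf, which were called higher in the haltere in nub cells and lower in tsh cells. Of all genes, 0.732% were called in both domains with opposite signs. This list too was chosen with earlier results of these data known. The call of haf in tsh cells (-0.38 ± 0.09, adjusted p = 0.0467) was lost without wing tsh replicate 1 (-0.41, adjusted p = 0.0526), which leaves rdo and kek1. With all libraries, rdo, haf and kek1 were also the 3 genes of the list with the smallest p for the interaction. The gene kek1, which encodes an inhibitor of the EGF receptor, averaged 1141.1 ± 1.80 CPM in haltere nub, 896.1 ± 39.3 CPM in wing nub, 448.6 ± 1.79 CPM in haltere tsh and 717.7 ± 1.84 CPM in wing tsh cells. Its interaction was 1.03 ± 0.11 (adjusted p = 0.000201). The level of rdo averaged 536.5 ± 2.94 CPM in haltere nub, 393.7 ± 20.0 CPM in wing nub, 64.7 ± 1.77 CPM in haltere tsh and 131.4 ± 6.06 CPM in wing tsh cells, with an interaction of 1.47 ± 0.12 (adjusted p = 1.48e-05). For haf the interaction was 1.26 ± 0.13 (adjusted p = 9.71e-05), on averages of 78.3 ± 1.38 CPM in haltere nub, 42.5 ± 3.60 CPM in wing nub, 54.5 ± 1.04 CPM in haltere tsh and 70.9 ± 1.80 CPM in wing tsh cells. Unlike caps, trn, kek1 and rdo, haf was lower in nub than in tsh cells of the wing disc (-0.74 ± 0.09, adjusted p = 0.000177).

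**Figure D4:**
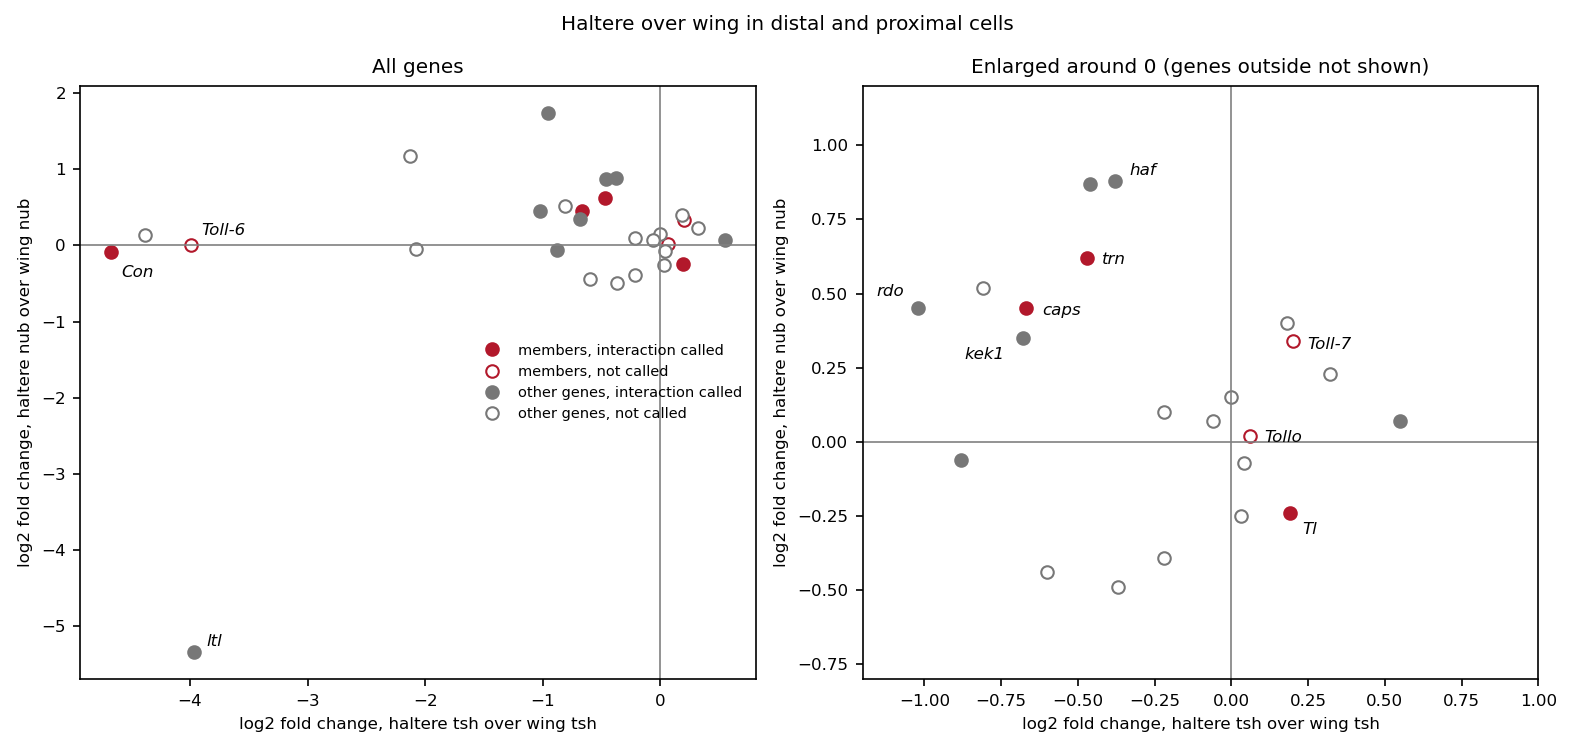
Log2 fold change of haltere over wing in nub cells (y axis) against that in tsh cells (x axis) for the 7 members (red) and 22 other tested genes of the leucine-rich repeat and Toll receptor lists (grey), filled where the interaction passed an adjusted p of 0.05, with an enlarged view on the right. The points of caps, trn, kek1, rdo and haf lie to the upper left of the origin. So do others, such as Lgr4 (-0.96 in tsh and 1.74 in nub cells) and atk (-0.46 and 0.87). Con, Toll-6, kek3 and ltl lie far to the left, and Tl to the lower right.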

How the data were processed

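Raw read counts per FlyBase gene ID were deposited by the authors, 1 library per file, for 17807 IDs, of which 17710 were matched to a symbol. The unmatched 97 held 0.624% to 0.71% of a library. Per the submitters' processing notes, HISAT2, Bowtie2, bcl2fastq and deepTools were used and the build was dm6. Which tool counted reads, with which annotation and strand setting, is not given in the sources used here. Tests used edgeR 4.0.16 (R 4.3.3): filterByExpr (11198 genes kept), TMM scaling and a robust quasi-likelihood fit of the 4 groups over 8 libraries (4 residual degrees of freedom, common biological coefficient of variation 19.9%). Tests were two-sided and called at a Benjamini-Hochberg adjusted p under 0.05 over all genes. SEs are the unshrunken log2 coefficient over the root of its F statistic, and 95% intervals from the t distribution. A single read equals 0.0104 to 0.0662 CPM, and the number of reads limits the precision of low genes.

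Replicates differed by more than sampling noise (chi-square per gene 9 to 31.4), so none was taken for a repeated deposit. Gene lists were written down of the Toll pathway, its partners, other leucine-rich repeat genes and markers of myoblasts, trachea, hemocytes, neurons or glia and fat body. The plan was to name at most 3 genes a list per comparison, by smallest p. Some genes named lie outside that plan, such as Mef2 and Him between tsh cells and kek1 between nub cells. The 2 genes most like each called member in pattern were taken among those with a mean of at least 5 CPM. The members and lists were chosen with earlier results of these data known. The pipeline was tested on simulated data. Alternatives were RLE size factors, no filter, DESeq2 1.42.0, fits of 4 libraries, a replicate block, each library left out, a gene span trend removed and haltere nub libraries thinned. Samples of ATAC-seq (17) and ChIP-seq (11) were not analysed here.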

Additional observations from a re-analysis of the deposited data

Results flagged for a closer look

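The difference between haltere and wing itself differed between nub and tsh cells for 4 members, by the interaction test of edgeR's quasi-likelihood fit. The interaction, on the log2 scale, was 1.12 for caps (0.45 in nub and -0.67 in tsh cells, adjusted p = 9.4e-05) and 1.09 for trn (0.62 in nub and -0.47 in tsh cells, adjusted p = 9.71e-05). It was 4.59 for Con (-0.08 in nub and -4.67 in tsh cells, adjusted p = 2.92e-05) and -0.43 for Tl (-0.24 in nub and 0.19 in tsh cells, adjusted p = 0.0353). Among the alternatives, those of caps, trn and Con were called in every fit, with adjusted p of at most 0.00259. That of Tl was called in 8 of 15 fits, with values from -0.75 (gene span trend removed) to -0.35 (without wing tsh replicate 1) and adjusted p from 0.00325 to 0.13.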

How the results depend on the processing

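Over 16 alternative settings, 553 values of members were recomputed. Of the 348 that belong to a called difference, 318 kept direction and call and none turned round. Only small or barely counted values changed sign. With each library left out in turn, Con lay between -0.46 and 0.43 for haltere over wing in nub cells (0.11 without haltere nub replicate 2, 0.43 without wing nub replicate 1). Toll-6, at 0.00 there in the fit reported, lay between -1.2 and 0.64, with 0.02 by RLE factors and by DESeq2 and 0.40 with crossed numbers. Tollo lay between -0.02 and 0.06 there and was -0.03 with the gene span trend removed. Toll-6 lay between -4.94 and 0.37 for the discs in tsh cells, -4.31 and 0.99 for the wing domains, -0.56 and 1.5 for the haltere domains, and -0.37 and 4.94 for the interaction. Tollo lay between -0.04 and 0.16 for the discs in tsh cells and between -0.14 and 0.06 for the interaction.

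Members called, with each library left out in turn, numbered 2 to 4 (3 in the fit reported) for the discs in nub cells and 2 to 6 (3) in tsh cells. They numbered 5 to 7 (6) for the wing domains, 4 to 6 (6) for the haltere domains and 3 to 5 (4) for the interaction. All genes called ranged likewise from 1176 to 3664 (2614), 177 to 1621 (365), 905 to 2718 (1549), 1456 to 3737 (2790) and 695 to 3400 (1727). The lone sample of a reduced group is assumed to vary like the others. Fits of only 4 libraries called 3952 genes for the discs in nub cells, 241 in tsh cells and 907 for the wing domains, and DESeq2 called 720 for the discs in tsh cells. The causes were not tested.

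The numbers of the replicates do not pair the samples by the labels. The deviations of same-numbered libraries had correlations across genes of -0.251 to 0.106. With a replicate block the members called were 3, 3, 6, 6 and 4, as without it, and the genes called for the discs in nub cells 2476. With the wing tsh numbers crossed, chosen after seeing the data, all genes called were 2827 there and 1649 for the wing domains.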
